A study of Mus musculus with 18 samples.

Results

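Cacna1g, Tinagl1, Rgcc, Dok4, Neu3, Paqr4, Phospho1, Mfhas1 and Kctd14 are 9 of the 23365 genes counted in spleen erythroblasts of mice that carry different pairs of Klf1 alleles. They were chosen from their measured counts, because they were low in mice with the least normal Klf1 and because several were also lower when 1 normal allele was lost. The values that chose them are therefore the differences of D45/KO and WT/KO from WT/WT. These, and the other differences from the same WT/WT libraries, are given below as a description. Where counts of genes past a threshold are printed for them, nothing is read from those counts. All 9 genes passed the filter on low counts, which left 13405 genes to be tested.

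The series followed Klf1 through 3 alleles in the mouse, the normal allele (WT), a knockout allele (KO) and the missense MommeD45 allele (D45), whose substitutions the series title locates in linker-2, between zinc fingers of the protein. 5 combinations were sequenced, as 4 libraries of D45/KO, 3 of D45/D45, 5 of WT/KO, 3 of WT/D45 and 3 of WT/WT. D45/KO mice carry no normal allele and are the compound heterozygotes for which the series describes haemolytic anaemia, a large spleen and more erythroid progenitors there. All 18 libraries came from spleen cells sorted on the surface markers TER119 of maturing red cells and CD71 (the transferrin receptor), and each library carries its own mouse number. Strain, sex and age of the mice are not given in the sources used here, nor is the part of Klf1 that the KO allele lacks. In bulk RNA of this kind, fewer cells that express a gene and less RNA of it per cell cannot be told apart.

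KLF1 is a transcription factor of red cell precursors. Its zinc fingers bind CACCC-type sequences in promoters and enhancers, and it is known for switching on globin, haem, membrane and cell cycle genes as erythroblasts mature. The 9 genes belong to different pathways. Cacna1g encodes the pore of the T-type calcium channel Cav3.1, Tinagl1 a secreted matricellular glycoprotein of basement membranes, and Rgcc a regulator of cell cycle kinases. Dok4 encodes an adaptor that docks to receptor tyrosine kinases. Neu3 encodes the plasma membrane sialidase, which removes sialic acid from gangliosides, Phospho1 a phosphatase of phosphocholine and phosphoethanolamine known from bone mineralisation, and Paqr4 a multipass membrane protein of the PAQR family. Mfhas1 encodes a leucine-rich repeat protein of the ROCO family with a GTPase-like domain, and Kctd14 a protein of the BTB-domain KCTD family.

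Because KLF1 binds CACCC-type sequences, the 250 bases before the annotated start sites were read for those motifs. RefSeq promoter sequences (build GRCm38.p6, a later build than the mm9 of the counts) were at hand for 5 of the 9 genes. They had 6 start sites, of which 2 belong to Tinagl1. The 3 promoters below are shown because they hold the rarer of the motifs searched. In Tinagl1 and Phospho1 capitals mark CCNCACCC, a KLF motif of the CACCC type. In Neu3 they mark AGATAA, the motif bound by GATA factors, which stands on the reverse strand and so reads TTATCT here. The first is Tinagl1 at chr4:130175123-130175372 on the minus strand, the second Phospho1 at chr11:95824250-95824499 on the plus strand and the third Neu3 at chr7:99828418-99828667 on the minus strand.
Tinagl1: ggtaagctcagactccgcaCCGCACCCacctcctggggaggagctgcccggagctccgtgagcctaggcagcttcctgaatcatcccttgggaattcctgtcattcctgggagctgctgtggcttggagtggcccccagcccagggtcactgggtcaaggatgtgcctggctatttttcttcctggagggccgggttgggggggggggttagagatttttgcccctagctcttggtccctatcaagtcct
Phospho1: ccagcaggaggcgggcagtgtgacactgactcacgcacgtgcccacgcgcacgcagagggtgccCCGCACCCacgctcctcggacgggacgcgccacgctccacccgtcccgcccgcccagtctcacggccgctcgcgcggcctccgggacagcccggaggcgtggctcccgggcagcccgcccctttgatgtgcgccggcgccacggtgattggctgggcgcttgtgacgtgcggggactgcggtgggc
Neu3: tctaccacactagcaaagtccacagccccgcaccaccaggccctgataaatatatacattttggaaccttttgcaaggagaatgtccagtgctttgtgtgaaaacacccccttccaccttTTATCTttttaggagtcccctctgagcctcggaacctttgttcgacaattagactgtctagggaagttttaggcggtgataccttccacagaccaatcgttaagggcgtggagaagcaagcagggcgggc

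Both strands were searched. CCNCACCC began 231 bases upstream of the first start site of Tinagl1 and 186 bases upstream in Phospho1, as CCGCACCC in both. Before the second Tinagl1 start site CCNCACCC was absent. It was found in 14.9% of the 32817 mouse promoters of the same length. The wider form CCNCNCCC, which includes the narrower one, occurred in all 6 promoters of the 5 genes and in 45.9% of all promoters. CCACACCC, the classical box, was found in none of the 5 and in 3.19% of all promoters. AGATAA was found in Neu3, beginning 130 bases upstream, and in 9.99% of all promoters. A match is a description of letters and not a binding site, and a missing match says only that the letters are not in this window.

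Library totals ran from 9.36 to 56.3 M counts (M for 1000000). Levels are given as CPM, counts per 1000000 after TMM scaling, whose factors ran from 0.366 to 1.93. The 10 erythroblast markers tested of 13 listed were called in none of the 5 comparisons made here by edgeR, with 0 also at an unadjusted p under 0.05, and 0 by DESeq2 and limma-voom. Against WT/WT, 10 of 10 fell below 0 in WT/KO, with a median log2 fold change of -0.59. For D45/KO 8 of 10 did, with a median of -0.36. D45/D45 had 2 of 10 below 0 (median 0.24) and WT/D45 5 of 10 (median 0.04). D45/D45 relative to WT/D45 gave a median of 0.30, with 0 of 10 below 0. Summed CPM of these markers varied from 41656 up to 747353 among the WT/WT libraries alone. Whether erythroid content was equal was not tested. The 16 B cell markers split each genotype into libraries with high and libraries with low levels. Their mean log2 CPM was 3.36 to 6.79 in 9 high libraries, against -2.67 to -0.75 in 9 low ones. The high libraries were 3 of 4 D45/KO, 1 of 3 D45/D45, 3 of 5 WT/KO, 1 of 3 WT/D45 and 1 of 3 WT/WT. No B cell marker was at 0 throughout a genotype, and their summed CPM spanned 4.82 to 896 in D45/KO, 3.21 to 958 in D45/D45, 6.86 to 2331 in WT/KO, 5.50 to 1485 in WT/D45 and 10.8 to 1319 in WT/WT. Against WT/WT their median log2 fold change was -0.29 in D45/KO (14 of 16 below 0) and -0.48 in D45/D45 (16 of 16). It was 1.52 in WT/KO (0 of 16 below 0) and 0.18 in WT/D45 (3 of 16). D45/D45 against WT/D45 had -0.63, with 16 of 16 below 0. edgeR called 0 of them in each comparison.

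Klf1 itself did not follow the order of the 9 genes. D45/KO libraries had 585, 282, 676 and 763 CPM and D45/D45 libraries 710, 1576 and 1394 CPM. WT/KO libraries had 230, 158, 191, 659 and 834 CPM, WT/D45 libraries 551, 1101 and 1295 CPM and WT/WT libraries 452, 1047 and 964 CPM. These levels check the labels only in part, since the part of Klf1 that KO lacks is not given. Means with their SD were 576 ± 209 CPM for the 4 D45/KO libraries, 1227 ± 457 CPM for the 3 D45/D45, 415 ± 311 CPM for the 5 WT/KO, 982 ± 386 CPM for the 3 WT/D45 and 821 ± 322 CPM for the 3 WT/WT libraries. None of these genotypes was separated from WT/WT without overlap. Relative to WT/WT, WT/KO had a log2 fold change of -0.99 ± 0.56 (SE), with an edgeR adjusted p of 0.818. Relative to WT/D45, D45/D45 had 0.32 ± 0.64, with an edgeR adjusted p of 1.

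Over the 9 genes the mean in D45/KO was 0.0772% to 14.9% of that in WT/WT, with a median of 1.63%. The median was 9.51% in D45/D45, with a range of 0.475% to 22.9%. In WT/KO it was 19.6%, from 1.17% for Tinagl1 to 63.6% for Mfhas1, and in WT/D45 46.6%, from 8.88% for Tinagl1 to 89.5% for Mfhas1. The mean CPM ran in the order D45/KO, D45/D45, WT/KO, WT/D45, WT/WT from low to high for 7 of the 9 genes. The exceptions were Rgcc, with its lowest mean in D45/D45, and Phospho1, with a mean slightly lower in WT/D45 than in WT/KO. With means of log2 CPM the order held for 4 genes only, Cacna1g, Dok4, Paqr4 and Mfhas1. On that scale WT/KO lay below D45/D45 for Tinagl1 (-7.95 in WT/KO and -7.68 in D45/D45, each minus WT/WT), Neu3 (-2.78 and -2.67) and Kctd14 (-2.22 and -1.90), and for Neu3 also below D45/KO (-2.73).

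**Figure D1:**
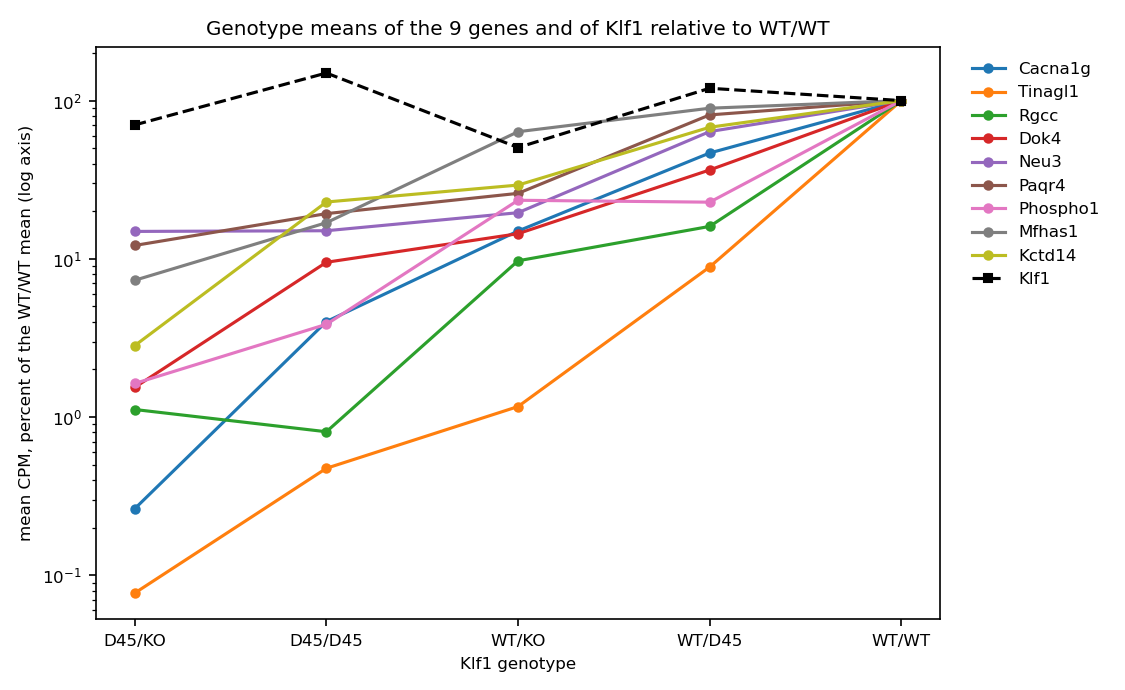
Mean CPM of each of the 9 genes and of Klf1 in each genotype, as a percentage of the gene's WT/WT mean on a log axis. Tinagl1 lies lowest in D45/KO at 0.0772% and in WT/KO at 1.17%, while Klf1 (dashed) stays between 50.5% and 149%.

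Cacna1g, the T-type calcium channel gene, was measured at 0.233, 0.0891, 0.348 and 0.231 CPM in D45/KO and at 2.65, 3.21 and 4.42 CPM in D45/D45. In WT/KO it was at 6.50, 2.54, 9.70, 15.6 and 29.7 CPM, in WT/D45 at 13.8, 57.1 and 48.7 CPM, and in WT/WT at 44.6, 143 and 68.8 CPM. All D45/KO libraries lay below all others. The D45/D45 libraries lay below all WT/D45 and WT/WT libraries but overlapped WT/KO, and WT/D45 overlapped both WT/KO and WT/WT. Against WT/WT the log2 fold change was -8.63 ± 0.88 (SE) in D45/KO, -4.64 ± 0.82 in D45/D45, -2.74 ± 0.63 in WT/KO and -1.10 ± 0.71 in WT/D45. These 4 comparisons share the WT/WT libraries.

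Other calcium entry and export genes did not show this pattern as a group. Of 19 such genes tested (23 listed, Cacna1g not among them), edgeR called 0 in each of the 5 comparisons. At an unadjusted p under 0.05, 2 were higher and 1 lower in D45/KO than in WT/WT, against 8.93% of all genes in either direction. DESeq2 called Cacna1c, the pore of an L-type calcium channel, higher and Kcnn4, a calcium-activated potassium channel, lower. limma-voom called Cacna1c higher. Cacna1c averaged 5.93 ± 2.15 CPM in D45/KO, against 0.306 ± 0.529 CPM in WT/WT, and Kcnn4 154 ± 64.1 CPM in D45/KO, against 513 ± 243 CPM in WT/WT (SD, n = 4 and 3). The list's median log2 fold change was -0.08, against 0.07 over all genes tested. Both genes were singled out after their values were seen.

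Tinagl1, the matricellular glycoprotein gene, had the widest range. It was at 0.296, 0.0891, 0 and 0.115 CPM in D45/KO, and at 0.368, 0.643 and 1.29 CPM in D45/D45. In WT/KO it was at 2.09, 0, 0, 2.96 and 4.39 CPM, in WT/D45 at 4.81, 22.0 and 16.3 CPM, and in WT/WT at 89.2, 232 and 164.1 CPM. Every WT/WT library was above every library of the other genotypes, and every WT/D45 library was above every D45/KO, D45/D45 and WT/KO library. WT/KO overlapped D45/D45 and D45/KO. A count of 0 allows up to 3 counts, which is 0.261 CPM in D45/KO replicate 3, 0.0592 CPM in WT/KO replicate 2 and 0.197 CPM in WT/KO replicate 3, for counting error only. Against WT/WT the log2 fold change was -10.07 ± 1.55 (SE) in D45/KO, -7.73 ± 1.60 in D45/D45, -6.42 ± 1.19 in WT/KO and -3.50 ± 1.30 in WT/D45. Mice with 1 normal and 1 KO allele had 1.17% of the WT/WT mean, and mice with 1 normal and 1 D45 allele 8.88%.

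Rgcc, the cell cycle regulator, was at 1.34, 1.78, 1.39 and 0.0577 CPM in D45/KO and at 0.884, 1.43 and 0.167 CPM in D45/D45. WT/KO libraries had 5.86, 8.97, 0.131, 13.5 and 21.3 CPM, WT/D45 libraries 20.2, 13.5 and 15.6 CPM and WT/WT libraries 36.1, 165.7 and 105 CPM. WT/WT lay above all other genotypes without overlap, and WT/D45 above D45/KO and D45/D45. WT/KO replicate 3 stood among the D45/KO and D45/D45 values, apart from the other 4 WT/KO libraries. Against WT/WT the log2 fold change was -6.48 ± 1.19 (SE) in D45/KO, -6.97 ± 1.39 in D45/D45, -3.36 ± 0.96 in WT/KO and -2.64 ± 1.13 in WT/D45.

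**Figure D2:**
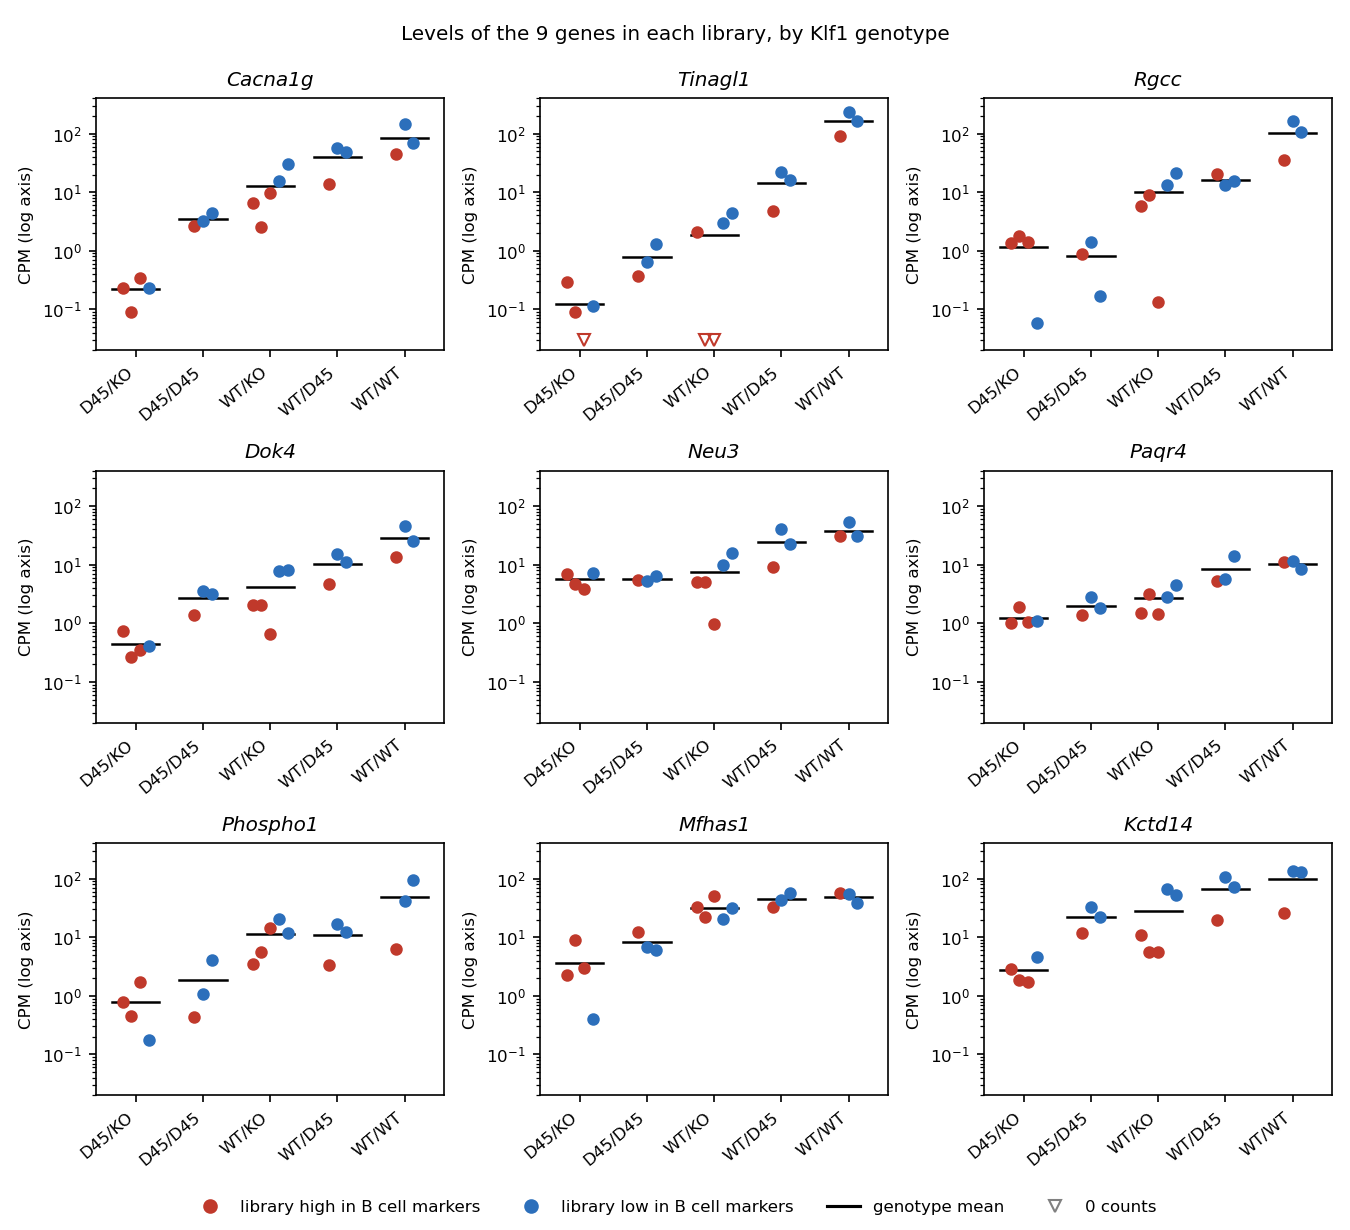
CPM on a log axis of each of the 9 genes in the 18 libraries, by genotype, with a bar at the genotype mean and colour for libraries high or low in B cell markers; open triangles mark 0 counts. The D45/KO libraries lie below the WT/WT libraries in every panel, and WT/WT lies above WT/D45 without overlap for Tinagl1 and Rgcc.

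Dok4, the adaptor gene, was at 0.267 to 0.731 CPM in D45/KO, 1.36 to 3.57 in D45/D45, 0.655 to 8.003 in WT/KO, 4.67 to 15.4 in WT/D45 and 13.7 to 46.2 in WT/WT. D45/KO did not overlap D45/D45, and D45/D45 did not overlap WT/D45. Its log2 fold change against WT/WT was -5.99 ± 0.85 (SE) in D45/KO, -3.40 ± 0.85 in D45/D45, -2.80 ± 0.69 in WT/KO and -1.46 ± 0.79 in WT/D45. In the RefSeq annotation Dok4 overlaps Polr2c, which encodes a subunit of RNA polymerase II. Whether the counts used strand is not given, so whether reads of 1 gene were counted for the other cannot be told. Polr2c was at 49.1 ± 16.03 CPM in D45/KO, against 64.4 ± 27.2 CPM in WT/WT (SD, n = 4 and 3). Of 16 other tested DOK adaptors and genes of erythroid tyrosine kinase signalling, Dok4 not among them, edgeR called 0 in each of the 5 comparisons. At an unadjusted p under 0.05, 3 were higher in D45/KO than in WT/WT, beside 8.93% of all genes in either direction. DESeq2 and limma-voom called 0.

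The 3 genes of membrane lipid enzymes and receptors differed in how low they went. Neu3, the ganglioside sialidase, was at 7.05, 4.63, 3.91 and 7.10 CPM in D45/KO and at 5.49, 5.36 and 6.35 CPM in D45/D45. In WT/KO it was at 5.11, 5.13, 0.983, 9.96 and 16.1 CPM, at 9.07, 41.4 and 22.3 CPM in WT/D45 and at 30.3, 53.1 and 30.8 CPM in WT/WT. D45/KO and D45/D45 overlapped each other, with means of 5.67 ± 1.64 CPM (n = 4) and 5.73 ± 0.54 CPM (n = 3), and the lowest library of all was a WT/KO one. Neu3 had a log2 fold change against WT/WT of -2.74 ± 0.66 (SE) in D45/KO, -2.73 ± 0.73 in D45/D45, -2.35 ± 0.60 in WT/KO and -0.65 ± 0.69 in WT/D45. Among 18 other genes of sialidases and ganglioside metabolism, edgeR called 0 in each comparison. In D45/KO against WT/WT 1 was lower at an unadjusted p under 0.05, beside 4.16% of all genes. DESeq2 called this gene, Nans, a sialic acid synthase, and limma-voom called 0.

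Paqr4, the PAQR family gene, was at 1.01 to 1.87 CPM in D45/KO, 1.36 to 2.79 in D45/D45, 1.44 to 4.49 in WT/KO, 5.26 to 14.1 in WT/D45 and 8.39 to 11.6 in WT/WT. The genotypes fell into 2 ranges that did not overlap, with D45/KO, D45/D45 and WT/KO in the lower one and WT/D45 and WT/WT in the higher. Without TMM scaling these ranges overlapped, with WT/KO replicate 2 at 5.08 CPM, WT/D45 replicate 2 at 3.41 and WT/WT replicate 3 at 3.07. Set against WT/WT its log2 fold change was -3.03 ± 0.56 (SE) in D45/KO, -2.38 ± 0.61 in D45/D45, -1.95 ± 0.51 in WT/KO and -0.30 ± 0.58 in WT/D45. Paqr4 overlaps Pkmyt1, a kinase gene of the cell cycle, which was at 27.9 ± 9.09 CPM in D45/KO, against 54.9 ± 12.1 CPM in WT/WT (SD, n = 4 and 3). Of the 9 other PAQR genes tested, 0 were called by edgeR in any comparison, 0 had an unadjusted p under 0.05 in D45/KO against WT/WT, and DESeq2 and limma-voom called 0. Paqr9 stood at 401 ± 141 CPM in D45/KO, against 473 ± 421 CPM in WT/WT.

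Phospho1, the phosphocholine phosphatase, was at 0.778, 0.446, 1.74 and 0.173 CPM in D45/KO and at 0.442, 1.07 and 4.05 CPM in D45/D45. In WT/KO it was at 3.50, 5.66, 14.5, 20.9 and 11.8 CPM, at 3.41, 17.1 and 12.4 CPM in WT/D45, and at 6.28, 42.2 and 95.8 CPM in WT/WT. D45/KO and D45/D45 each lay below WT/WT without overlap. WT/KO and WT/D45 covered nearly the same range, and each overlapped WT/WT, whose first replicate was far below the other two. Against WT/WT its log2 fold change was -5.99 ± 1.07 (SE) in D45/KO, -4.70 ± 1.14 in D45/D45, -2.09 ± 0.85 in WT/KO and -2.14 ± 1.01 in WT/D45. Single libraries moved these values. Without WT/WT replicate 3 they were -4.99 in D45/KO, -3.70 in D45/D45, -1.10 in WT/KO and -1.15 in WT/D45, and without D45/D45 replicate 3 the value in D45/D45 was -6.02. Phospho1 overlaps Abi3, a gene of actin regulation, at 8.59 ± 10.1 CPM in D45/KO, against 22.2 ± 14.6 CPM in WT/WT (SD, n = 4 and 3). Among 23 other genes of phosphocholine and phosphoethanolamine metabolism, edgeR called 0 in each comparison. Of these, 2 were higher and 1 lower at an unadjusted p under 0.05 in D45/KO against WT/WT, beside 8.93% of all genes in either direction. DESeq2 called 1 lower, Pcyt1a, the rate-limiting enzyme of phosphatidylcholine synthesis by the CDP-choline route, at 70.0 ± 16.7 CPM in D45/KO, against 345 ± 121 CPM in WT/WT. limma-voom called 0.

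Mfhas1, the ROCO family gene, kept the highest share of its WT/WT mean among the 9 genes in WT/KO, at 63.6%, and in WT/D45, at 89.5%. In WT/D45 Paqr4 was also little lower, at 81.2%. Mfhas1 was at 2.30, 8.82, 2.96 and 0.404 CPM in D45/KO and at 12.3, 6.72 and 6.05 CPM in D45/D45. In WT/KO it was at 32.3, 22.1, 51.1, 20.7 and 31.0 CPM, at 32.7, 43.6 and 56.6 CPM in WT/D45, and at 55.9, 54.2 and 38.3 CPM in WT/WT. The libraries without a normal allele reached 12.3 CPM at most and those with one 20.7 CPM at least, and the 3 genotypes with a normal allele overlapped. Without TMM scaling this separation was lost. D45/D45 replicate 1 was then at 19.5 CPM, WT/KO replicate 4 at 10.8 and WT/WT replicate 3 at 14.0. The log2 fold change against WT/WT was -3.77 ± 0.66 (SE) in D45/KO, -2.56 ± 0.70 in D45/D45, -0.65 ± 0.59 in WT/KO and -0.16 ± 0.66 in WT/D45. With libraries low in B cell markers alone, the value in WT/D45 was 0.046, and without WT/D45 replicate 1 it was 0.016.

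The annotation places Gm16793, a predicted gene, over Mfhas1. Gm16793 had 2 counts in the 4 D45/KO libraries, 221 in the 3 D45/D45, 900 in the 5 WT/KO, 817 in the 3 WT/D45 and 438 in the 3 WT/WT libraries. Its mean was 0.00778 CPM in D45/KO, 3.08 in D45/D45, 5.60 in WT/KO, 8.56 in WT/D45 and 7.67 in WT/WT. Like Mfhas1 it was lowest in D45/KO, and its D45/D45 range of 1.55 to 4.79 CPM overlapped those of the 3 genotypes with a normal allele. In D45/KO against WT/WT the log2 fold change of Gm16793 was -9.03 ± 1.04 (SE), with an edgeR adjusted p of 6.1e-04, from 2 counts in D45/KO. Whether reads of 1 gene of this pair were counted for the other cannot be told. The 3 other ROCO genes were not called by edgeR, DESeq2 or limma-voom in any comparison, with 0 of 3 at an unadjusted p under 0.05.

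Kctd14, the BTB-domain gene, was at 1.74 to 4.56 CPM in D45/KO, 12.0 to 32.4 in D45/D45, 5.58 to 67.4 in WT/KO, 19.97 to 107 in WT/D45 and 26.0 to 137 in WT/WT. D45/KO lay below all other genotypes without overlap, and the other genotypes overlapped their neighbours. The log2 fold change against WT/WT was -5.13 ± 0.94 (SE) in D45/KO, -2.13 ± 0.93 in D45/D45, -1.77 ± 0.78 in WT/KO and -0.56 ± 0.89 in WT/D45. In WT/KO the 3 libraries high in B cell markers were at 5.58 to 10.8 CPM and the 2 low ones at 67.4 and 53.6 CPM. Of 17 other KCTD genes tested, edgeR called 0 in each comparison. At an unadjusted p under 0.05, 1 was higher in D45/KO than in WT/WT, beside 8.93% of all genes in either direction. DESeq2 called this gene, Kctd11, which averaged 7.81 ± 2.88 CPM in D45/KO, against 2.41 ± 1.37 CPM in WT/WT (SD, n = 4 and 3), and limma-voom called 0.

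Neighbours in the order of levels overlapped for most of the 9 genes. D45/KO lay below D45/D45 without overlap for 4 genes (Cacna1g, Tinagl1, Dok4 and Kctd14), beside 2.29% of all genes tested. D45/D45 lay below WT/KO for 1, Mfhas1, beside 0.925%. WT/KO lay below WT/D45 for 2, Tinagl1 and Paqr4, beside 0.686%, and WT/D45 below WT/WT for 2, Tinagl1 and Rgcc, beside 1.19%. Without TMM scaling there was overlap for Tinagl1 between D45/KO and D45/D45, Mfhas1 between D45/D45 and WT/KO, and Paqr4 between WT/KO and WT/D45. Cacna1g, Dok4 and Neu3 then separated between WT/KO and WT/D45. Phospho1 then separated between D45/D45 and WT/KO and between WT/D45 and WT/WT. In D45/KO against WT/WT, a contrast that chose the genes, 8 of the 9 had an edgeR adjusted p under 0.05, all except Neu3, beside 0.358% of all genes called lower. Without single libraries this count ranged from 3 to 8, with 3 both without D45/KO replicate 1 and without WT/WT replicate 2, and 4 without D45/KO replicate 3 or 4 or WT/WT replicate 3. Nothing is read from it, since the genes were picked on it. Their median log2 fold change was -5.99 there, -3.40 in D45/D45, -2.35 in WT/KO and -1.10 in WT/D45, each against WT/WT, while the medians of all genes were 0.07, 0.01, 0.26 and 0.10 in the same order.

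The other comparisons with WT/WT are described in the same way, with nothing read from the counts, since the same WT/WT libraries chose the genes. D45/KO lay below WT/WT without overlap for all 9 genes, beside 3.55% of all genes, and D45/D45 for 8, all except Kctd14, beside 3.65%. WT/KO did so for 6, beside 0.627%. Without TMM scaling D45/D45 overlapped WT/WT for Mfhas1 and not for Kctd14. WT/KO then overlapped WT/WT for Neu3 and Paqr4 and not for Kctd14. At an unadjusted p under 0.05 in edgeR, 9 were lower in D45/KO (4.16% of all genes), 9 in D45/D45 (1.63%), 8 in WT/KO (1.89%, Mfhas1 excepted) and 2 in WT/D45 (0.403%, Tinagl1 and Rgcc), while at an adjusted p edgeR called 0 genes of any kind in the last 3.

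How many of the 9 passed an adjusted p under 0.05 depended on the fit in these comparisons. In D45/D45 against WT/WT, DESeq2 called 8, all but Kctd14, beside 0.321% of all genes called lower. Tinagl1 alone was called when only these 2 genotypes were fitted (0.00956%), and Cacna1g alone with DESeq2 size factors (0.0224%) and with the replicate number as a block over all libraries (0.0298%). The covariate for B cell markers gave 7 (0.231%), all but Paqr4 and Mfhas1. The low libraries alone (0.809%) and the block in the 3 genotypes without a KO allele (0.292%) each gave 8, all but Paqr4. For WT/KO, DESeq2 called Cacna1g, Tinagl1, Dok4, Neu3 and Paqr4 (0.104%), limma-voom Tinagl1 (0.00746%), the covariate Cacna1g, Tinagl1 and Dok4 (0.0298%) and the low libraries Cacna1g, Tinagl1 and Rgcc (0.0948%). For WT/D45, the low libraries gave Tinagl1 and Rgcc (0.0146%) and the block in 3 genotypes Tinagl1 (0.00833%). In D45/KO against WT/WT the high libraries alone gave 1, Cacna1g (0.0548%), from a fit with 1 WT/WT library, which is assumed to vary like the other groups. The fit to low libraries likewise had 1 D45/KO library and 2 of each other genotype.

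A table of the authors' own comparison gives WT/WT over WT/KO, so that a positive value means lower in WT/KO. In the authors' deposited table of 9918 genes, the 6 smallest p-values belonged to Tinagl1, Rgcc, Cacna1g, Neu3, Dok4 and Paqr4, with log2 fold changes of 8.48, 3.89, 3.50, 2.72, 3.15 and 2.35. In the authors' deposited table Kctd14 had rank 34 by p with a value of 2.58, Phospho1 rank 273 with 1.66, Mfhas1 rank 417 with 0.75 and Klf1 rank 213 with 1.25. No adjusted p in the authors' deposited table was under 0.05, the smallest being 0.0676, and this contrast was among those that chose the genes.

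D45/D45 carries a second D45 allele in place of the normal allele of WT/D45, so that gain of the one and loss of the other cannot be told apart in this comparison. It shares no library with D45/KO against WT/WT or WT/KO against WT/WT. The 9 genes were still proposed with results of all 5 genotypes known, so it is not independent support. All 9 genes had a negative log2 fold change, with a median of -2.40 against -0.07 over all genes tested, and 7 of the 9 did not overlap. Cacna1g averaged 3.43 ± 0.91 CPM in D45/D45 and 39.9 ± 23.0 CPM in WT/D45, and Tinagl1 0.768 ± 0.476 CPM in D45/D45 and 14.4 ± 8.76 CPM in WT/D45. Rgcc averaged 0.826 ± 0.633 CPM in D45/D45 and 16.4 ± 3.45 CPM in WT/D45, and Mfhas1 8.37 ± 3.45 CPM in D45/D45 and 44.3 ± 11.9 CPM in WT/D45 (SD, n = 3 each throughout). The exceptions without separation were Phospho1, at 1.85 ± 1.93 CPM in D45/D45 and 11.0 ± 6.95 CPM in WT/D45, and Kctd14, at 22.4 ± 10.2 CPM in D45/D45 and 66.3 ± 43.7 CPM in WT/D45. Over all genes tested, 2.59% lay lower in D45/D45 without overlap. Without TMM scaling Phospho1 was at 2.31 CPM at most in D45/D45 and 6.41 CPM at least in WT/D45. Kctd14 was then at 21.2 CPM at most in D45/D45 and 37.6 CPM at least in WT/D45, so that both separated. The share over all genes is for TMM-scaled CPM only.

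In the edgeR fit to all 18 libraries none of the 9 passed the adjusted threshold, and none of the 13405 genes did (0%). The adjusted p was 1 for each of the 9 genes. At an unadjusted p under 0.05, 8 of the 9 were lower, all except Kctd14, beside 1.06% of all genes lower and 233 genes in either direction. The log2 fold change was -3.54 ± 0.78 (SE) for Cacna1g, -4.23 ± 1.37 for Tinagl1, -4.33 ± 1.24 for Rgcc and -1.94 ± 0.81 for Dok4. It was -2.08 ± 0.71 for Neu3, -2.08 ± 0.60 for Paqr4, -2.56 ± 1.04 for Phospho1, -2.40 ± 0.70 for Mfhas1 and -1.57 ± 0.91 for Kctd14. DESeq2 called 15 genes, among them Cacna1g, Rgcc and Paqr4, beside 0.0671% called lower, and limma-voom called 0.

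Same-numbered libraries deviated together from their genotype means in the 3 genotypes without a KO allele, but the labels do not say what a number stands for. With the replicate number as a block in those 9 libraries, edgeR called 4 of the 9 genes lower in D45/D45 than in WT/D45, beside 0.05% of 12006 genes called lower, and the SE of each of the 9 was smaller than in the fit to all libraries. These were Cacna1g, at -3.30 ± 0.35 with an adjusted p of 0.00959, Tinagl1, at -4.06 ± 0.32 with an adjusted p of 9.05e-04, Rgcc, at -4.49 ± 0.61, and Mfhas1, at -2.47 ± 0.33, the last 2 with an adjusted p of 0.0310 each by edgeR. The other 5 had values of -2.87 (Phospho1) to -1.37 (Kctd14), with edgeR adjusted p from 0.0593 to 0.379. A block over all 18 libraries called 0 of the 9 and 0 genes in all. In each of these 3 genotypes replicate 1 was also the library high in B cell markers. A pairing by number and B cell transcripts can therefore not be told apart here.

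**Figure D3:**
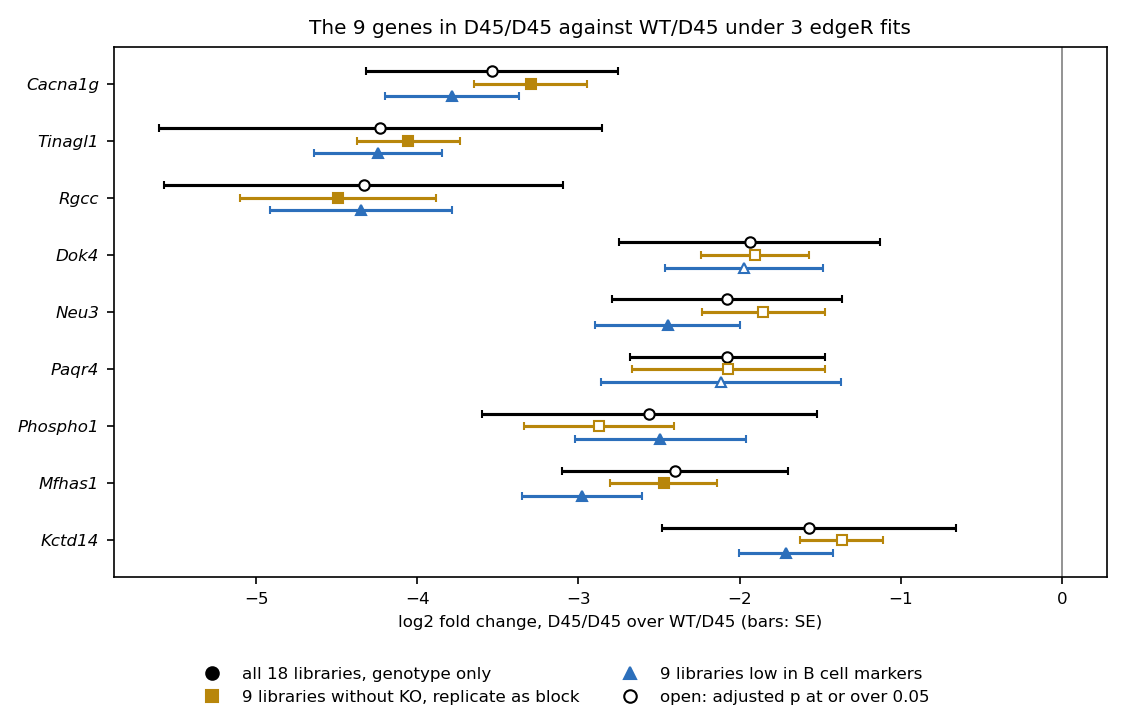
Log2 fold change of D45/D45 over WT/D45 for the 9 genes, with bars of 1 SE, from edgeR on all 18 libraries, on the 9 libraries without a KO allele with the replicate number as a block, and on the 9 libraries low in B cell markers; open symbols mark an adjusted p at or over 0.05. Every estimate lies below 0, and Cacna1g, Tinagl1, Rgcc and Mfhas1 are filled under both of the smaller fits.

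With the 9 libraries low in B cell markers alone, 7 of the 9 were called lower in D45/D45 than in WT/D45 by edgeR, beside 0.19% of 13719 genes called lower. Their log2 fold changes ran from -4.35 ± 0.56 for Rgcc to -1.71 ± 0.29 for Kctd14, with adjusted p from 1.41e-05 for Tinagl1 to 0.0458 for Phospho1. Dok4, at -1.97 ± 0.49 with an edgeR adjusted p of 0.111, and Paqr4, at -2.12 ± 0.74 with an adjusted p of 0.510, were not called. With the mean log2 CPM of the B cell markers as a covariate, edgeR called Cacna1g alone of the 9, at -3.40 ± 0.48 with an adjusted p of 0.0142, beside 0.0149% of all genes called lower. With the 9 libraries high in these markers alone all 9 values were negative, from -4.59 for Rgcc to -0.80 for Neu3 and Kctd14, and edgeR called 0 of the 9 and 0 genes in all, with 1 library in each of these 2 genotypes.

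Markers of other cell types were summed in each library. For 10 megakaryocyte markers the summed CPM was 429 to 819 in D45/KO, 211 to 619 in D45/D45, 49.2 to 265 in WT/KO, 42.9 to 175 in WT/D45 and 33.1 to 207 in WT/WT. Most of it came from Itga2b, the integrin CD41 that early erythroid progenitors also carry, at 450 ± 142 CPM in D45/KO, 313 ± 158 in D45/D45 and 54.9 ± 70.9 in WT/WT (SD, n = 4, 3 and 3). Pf4, platelet factor 4, averaged 0.132 CPM in D45/KO, 0.0417 in D45/D45 and 0.358 in WT/WT, and Treml1 was at 0 counts in all libraries of these 3 genotypes. Other markers of the list had higher means in D45/KO than in WT/WT. Vwf averaged 92.6 CPM in D45/KO, against 24.6 CPM in WT/WT, and Gp9 36.5 CPM, against 17.98 CPM. Gp6 averaged 2.44 CPM in D45/KO, against 0.388 CPM in WT/WT, and Gp1ba 1.17 CPM, against 0.212 CPM. In this comparison 3 of the 9 tested markers had a log2 fold change below 0. Of the 9 tested markers edgeR called 0 in any comparison. At an unadjusted p under 0.05, 2 were higher in D45/KO against WT/WT, beside 8.93% of all genes in either direction. In D45/D45, 3 were higher against WT/WT, beside 545 of all 13405 genes in either direction, and 2 against WT/D45, beside 233. In WT/D45 against WT/WT 1 was lower, beside 0.403%. DESeq2 called Itga2b in D45/KO against WT/WT. The summed CPM of 13 neutrophil markers was 22.6 to 221 in D45/KO, 2.38 to 152 in D45/D45, 2.33 to 57.8 in WT/KO, 88.7 to 160 in WT/D45 and 127 to 306 in WT/WT, with none at 0 throughout a genotype. edgeR called 0 of the 13 in any comparison, and DESeq2 and limma-voom called 0. At an unadjusted p under 0.05, 5 were lower in WT/KO relative to WT/WT, beside 1.89% of all genes. All 13 were below 0 there, with a median log2 fold change of -3.09. In D45/D45 relative to WT/D45, 1 was lower, beside 1.06%. Of 13 T and NK cell markers, Lck, a kinase of T cell receptor signalling, was called lower in D45/KO, at 8.66 ± 2.10 CPM, against 23.3 ± 5.02 CPM in WT/WT (SD, n = 4 and 3, edgeR adjusted p of 0.0454). Lck was the only 1 of the 13 called, beside 0.358% of all genes called lower. The median log2 fold change of the 13 there was -0.06, with 7 below 0. Against WT/WT it was also 1.83 in WT/KO (1 below 0), -0.24 in D45/D45 (8) and 0.78 in WT/D45 (4). D45/D45 relative to WT/D45 gave -0.31, with 11 below 0. The summed CPM of macrophage and monocyte markers (14 of 15 listed were counted) was 93.9 to 2673 in D45/KO, 85.2 to 244 in D45/D45, 111 to 2449 in WT/KO, 92.9 to 279 in WT/D45 and 265 to 445 in WT/WT, with none at 0 throughout a genotype. Against WT/WT their median log2 fold change was 1.34 in D45/KO (12 of 14 above 0), -1.06 in D45/D45 (14 of 14 below 0), 1.53 in WT/KO (14 of 14 above 0) and -0.92 in WT/D45 (13 of 14 below 0). It was -0.19 in D45/D45 against WT/D45, with 14 of 14 below 0. None of the 14 was called by edgeR, DESeq2 or limma-voom in any of the 5 comparisons, and 0 had an unadjusted edgeR p under 0.05. The part of these cells in the values of the 9 genes was not tested.

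The 9 genes also differed between the libraries high and low in B cell markers within a genotype. These differences are on TMM-scaled CPM, with factors of 1.09 to 1.93 in the high and 0.366 to 0.954 in the low libraries. The median difference over the 9 genes, high minus low on the log2 CPM scale, was 0.03 in D45/KO, -0.71 in D45/D45, -2.07 in WT/KO, -1.74 in WT/D45 and -1.15 in WT/WT, while the medians of all genes were 0.05, 0.19, 0.18, 0.17 and 0.44. In WT/KO, 8 of the 9 were lower in the high libraries, with Mfhas1 the exception. Cacna1g averaged 6.25 CPM in the 3 high and 22.7 CPM in the 2 low WT/KO libraries, and Tinagl1 0.696 CPM in the high and 3.67 CPM in the low ones. On this scale Klf1 was lower in the high libraries of every genotype, with differences of -0.66 in D45/KO, -1.06 in D45/D45, -1.96 in WT/KO, -1.11 in WT/D45 and -1.15 in WT/WT. Without TMM scaling Klf1 was at 831 CPM in the high WT/WT library, against 637 and 353 CPM in the low ones. It was then also higher in the high D45/D45 library, and high and low libraries overlapped in the other genotypes. In WT/WT, Tinagl1, Neu3, Paqr4 and Mfhas1 were then higher in the high library, Phospho1 lower, and the rest between the low ones.

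The comparisons with WT/WT were also made within each kind of library. In the low libraries all 9 means were lower in D45/KO, in D45/D45 and in WT/KO than in WT/WT, and 8 of 9, all but Mfhas1, in WT/D45. In the high libraries all 9 were lower in D45/KO, in D45/D45 and in WT/D45 than in WT/WT, and 8 of 9, all but Phospho1, in WT/KO. The whole order of 5 genotypes held for 5 genes in the low libraries and for 4 in the high ones. The part of B cell transcripts in the levels of the 9 genes was not tested beyond these values.

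**Figure D4:**
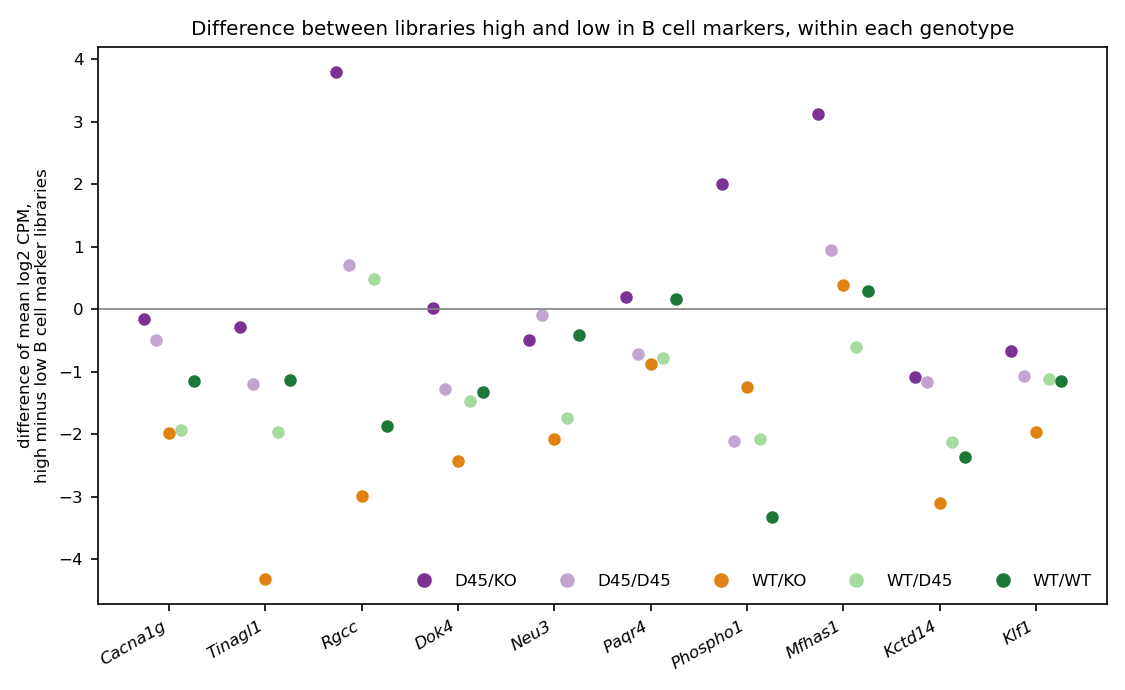
Difference of mean log2 CPM between libraries high and low in B cell markers within each genotype, for the 9 genes and Klf1, with 1 point per genotype. Most points lie below 0, with the widest gap at -4.31 for Tinagl1 in WT/KO, while Rgcc, Phospho1 and Mfhas1 lie above 1 in D45/KO. CPM are TMM-scaled, and without that scaling some of the differences change sign.

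The genes most like the 9 in their pattern over the genotypes were found by the root mean square difference from the median profile of the 9, a profile being the 4 differences of genotype mean log2 CPM from WT/WT. Among 8675 candidate genes the nearest were Snx22 at 0.86, Slc28a1 at 0.89, Nanos1 and Thsd7b at 0.94, Nacad at 1.03 and Zfp462 at 1.08. Snx22, a sorting nexin gene, averaged 5.22 ± 0.96 CPM in D45/KO, 44.96 ± 19.3 in D45/D45, 75.9 ± 70.9 in WT/KO, 163.9 ± 99.0 in WT/D45 and 193 ± 68.4 in WT/WT (SD). Nanos1, an RNA-binding protein gene, averaged 1.10 ± 0.71 CPM in D45/KO, 3.86 ± 1.66 in D45/D45, 5.48 ± 5.59 in WT/KO, 11.6 ± 5.85 in WT/D45 and 17.6 ± 7.16 in WT/WT. Both followed the order of mean CPM that 7 of the 9 genes had. On the log2 scale that defines likeness here only Snx22 did, since Nanos1 was at -2.97 in WT/KO and -2.16 in D45/D45, each minus WT/WT. Slc28a1, Thsd7b and Zfp462 averaged under 3 CPM even in WT/WT.

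Nearest to Cacna1g were Slc28a1 at 1.79, Snx22 at 2.04, Lats2 at 2.12 and Thsd7b at 2.17. Lats2, a kinase gene of the Hippo pathway, averaged 4.41 ± 4.16 CPM in D45/KO, 2.84 ± 3.04 in D45/D45, 18.7 ± 9.93 in WT/KO, 24.3 ± 8.90 in WT/D45 and 53.0 ± 9.94 in WT/WT (SD). Nearest to Tinagl1 were Pnp2 at 3.53, Slc28a1 at 3.79, Nrbp2 at 3.94 and Slc4a5 at 3.96, farther away than any of the genes nearest to Cacna1g. Pnp2, a purine nucleoside phosphorylase gene, averaged 11.4 ± 12.4 CPM in D45/KO, 7.99 ± 12.0 in D45/D45, 3.03 ± 5.87 in WT/KO, 30.5 ± 35.3 in WT/D45 and 71.1 ± 27.8 in WT/WT. Its lowest mean was in WT/KO, unlike that of Tinagl1.

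A list of textbook targets of KLF1 was read in the same fits. Of 33 tested (38 listed), edgeR called 0 in each of the 5 comparisons. In D45/KO against WT/WT, 2 were lower at an unadjusted p under 0.05, beside 4.16% of all genes. DESeq2 called these 2, the membrane skeleton gene Epb4.9 (dematin) and the repressor gene Klf3, while limma-voom called 0. The median log2 fold change of the list there was -0.59, with 25 of 33 below 0, against 0.07 over all genes tested. Epb4.9 averaged 197 ± 116 CPM in D45/KO, against 1448 ± 681 CPM in WT/WT, and Klf3 86.2 ± 21.4 CPM in D45/KO, against 260 ± 86.4 CPM in WT/WT (SD, n = 4 and 3). In WT/KO against WT/WT the list's median was -0.53, with 29 of 33 below 0, against 0.26 over all genes tested. In D45/D45 against WT/D45 it was 0.15 and 0 of 33 had an unadjusted p under 0.05. Of 15 other basement membrane and matricellular genes tested, Tinagl1 not among them, edgeR called 0 in each comparison. Of these, 1 was higher at an unadjusted p under 0.05 in D45/KO against WT/WT, beside 8.93% of all genes in either direction. DESeq2 and limma-voom both called this gene, Thbs1, a thrombospondin, higher, at 7.07 ± 3.00 CPM in D45/KO, against 0.0627 ± 0.109 CPM in WT/WT. In the other 4 comparisons each of these 9 lists had at most 2 genes at an unadjusted p under 0.05.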

How the data were processed

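The deposited table holds raw whole-number counts per gene symbol for 18 libraries, from cells sorted from spleen, extracted with Trizol and made into libraries with a Swift Rapid RNA kit, per the protocols in the labels. HISAT2, featureCounts, limma and the mm9 genome are named in the submitters' processing notes, without versions. The use of strand in counting is not stated in these sources. In a second deposited table the authors give, for 9918 genes, the same counts (178470 of 178470 values equal), CPM, log2 fold changes (WT/WT divided by WT/KO) with an average log2 expression, and p-values with adjusted p-values. Its log2 fold changes, the ranks of its p-values and its smallest adjusted p are printed. Symbols turned into dates (27) or repeated (2) are not named, and 0 columns of other samples were found.

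The deposited counts went into edgeR 4.0.16 (R 4.3.3), with groups from the genotype labels. After filterByExpr (13405 genes kept) and TMM scaling, 1 quasi-likelihood model (robust option off) with genotype and no other term covered the 18 libraries. A call is a Benjamini-Hochberg adjusted p under 0.05 over all genes tested. The SE is the log2 fold change divided by the square root of its F statistic, and is approximate near 0 counts. Library sizes for CPM were scaled by TMM, and a prior count of 2 was used for log2 CPM. Overlap of groups was read on TMM-scaled CPM, and without that scaling it differs for some genes. The globin share of the counts ran from 2.28% to 23.4% over the libraries. Totals of 9.36 to 56.3 M counts make 1 CPM about 9.36 to 56.3 counts before TMM, and the limits given for a count of 0 cover counting error only. The 9 genes and all gene lists were chosen with earlier results of these data known. Genes named besides the 9 and Klf1 are list genes called by edgeR and the nearest patterns (WT/WT mean of at least 2 CPM), and others, including every list gene called by DESeq2 alone and the genes overlapping a member, were named after their values were seen or from the annotation. Libraries were called high or low in B cell markers at the widest gap of their mean log2 CPM.

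Same-numbered libraries deviated together from their genotype means in all comparisons without a KO genotype (correlations of 0.71, 0.35 and 0.19 for D45/D45 with WT/WT, 0.71, 0.22 and 0.12 for WT/D45 with WT/WT, and 0.77, 0.26 and 0.37 for D45/D45 with WT/D45), but not for every number in those with a KO genotype (0.36, -0.31 and 0.042 for D45/KO with WT/WT, and 0.66, -0.35 and -0.12 for WT/KO with WT/WT), where replicate 1 alone was clearly above 0. The labels do not say what a number stands for. Replicate 1 was the library high in B cell markers in each genotype without a KO allele, so these correlations do not show a pairing apart from that. Alternatives were DESeq2 1.42.0, limma-voom 3.58.1, DESeq2 size factors, no filter, the 2 genotypes alone, a B cell covariate, a replicate block and each replicate left out. Scripts were tested on simulated counts. Promoters came from RefSeq tables of GRCm38.p6, matched by symbol.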

Additional observations from a re-analysis of the deposited data

Results flagged for a closer look

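Paqr4 in D45/KO replicate 2 stood at 1.87 CPM, apart from the other 3 D45/KO libraries at 1.01, 1.04 and 1.10 CPM. Its gap to the nearest of them was 0.901 of the whole range of the group, above Dixon's critical value for 4 samples. It was the 1 such value among the 18 sets of libraries examined (9 genes in D45/KO and WT/KO), and chance gives about 1 in 20. All 4 values lay below the lowest WT/WT library, at 8.39 CPM.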

How the results depend on the processing

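Of 729 values of the 9 genes under the alternatives, 618 kept their direction and side of the threshold, 71 passed it only under the alternative, 37 no longer passed it and 3 changed sign. The 3 were Mfhas1 in WT/D45 against WT/WT, at 0.046 with libraries low in B cell markers alone and 0.016 without WT/D45 replicate 1 (-0.38 to 0.016 over each replicate left out), and Phospho1 in WT/KO against WT/WT, at 0.22 with the high libraries alone. None of these 3 values passed the test before or after. The cause was not tested for any value below.

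In D45/KO against WT/WT, where edgeR called 83 genes (35 higher, 48 lower), the count was 406 with DESeq2 (190 higher, 216 lower), 126 with DESeq2 size factors (44 higher, 82 lower), 555 with the B cell covariate (342 higher, 213 lower), 209 with the replicate block (80 higher, 129 lower) and 322 with the low libraries alone (149 higher, 173 lower), of which 1 was D45/KO. With the high libraries alone, of which 1 was WT/WT, it was 10, with 1 of the 9 genes. A lone library is assumed to vary like the other groups. In D45/D45 against WT/WT, where 0 genes were called, the count over all genes and over the 9 was 69 and 8 with DESeq2, 3 and 1 with DESeq2 size factors, 1 and 1 with the 2 genotypes alone, 52 and 7 with the B cell covariate, and 186 and 8 with the low libraries. In WT/KO against WT/WT, likewise from 0, it was 19 and 5 with DESeq2, 1 and 1 with limma-voom, 4 and 3 with the B cell covariate and 23 and 3 with the low libraries. In WT/D45 against WT/WT it was 3 and 2 with the low libraries. In D45/D45 against WT/D45 it was 15 and 3 with DESeq2, 2 and 1 with the B cell covariate and 53 and 7 with the low libraries.

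With the replicate number as a block over all 18 libraries, D45/D45 against WT/WT gave 10 genes and 1 of the 9. With the block in the 3 genotypes without a KO allele, the counts were 74 and 8 in D45/D45 against WT/WT, 1 and 1 in WT/D45 against WT/WT (Tinagl1) and 10 and 4 in D45/D45 against WT/D45. No other count of calls moved by over 1.5 times under the block, except in D45/KO against WT/WT as given above.

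Leaving out each replicate gave 19 to 121 genes and 3 to 8 of the 9 in D45/KO against WT/WT, 0 to 3 genes and 0 of the 9 in D45/D45 against WT/WT, 0 to 1 genes and 0 of the 9 in WT/KO against WT/WT, and 0 of either in the other 2 comparisons. The low counts were 24 genes without D45/KO replicate 4, 25 without replicate 1, 31 without replicate 3, 19 without WT/WT replicate 2 and 28 without WT/WT replicate 3. Single libraries moved the fold change by over 1.5 times for 4 of the 9 genes in D45/KO against WT/WT, 3 in D45/D45 against WT/WT and 4 in each other comparison. The farthest moved was Phospho1 in all 5, by up to 1.32 on the log2 scale in D45/D45 against WT/WT, to -6.02 without D45/D45 replicate 3. Without the same library it was -3.89 in D45/D45 against WT/D45. DESeq2 size factors moved the median of all genes by -0.115 in D45/D45 against WT/WT and by less elsewhere, and all 9 genes stayed below 0 in all 5 comparisons. The fits to low or high libraries alone and the block in 3 genotypes were chosen after seeing the data. With 3 to 5 libraries a genotype and Tinagl1 at 27 counts in all of D45/KO, small differences between the lowest levels were not detectable.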
